A study of Homo sapiens with 6 samples.

Results

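The genes described here are the 5 subunits of the transcription factor NF-κB (*NFKB1*, *NFKB2*, *REL*, *RELA* and *RELB*) and 5 of its inhibitors (*NFKBIA*, *NFKBIB*, *NFKBIE*, *NFKBIZ* and *TNFAIP3*). They were taken by symbol, and all 10 were found among the 19225 symbols of the expression table and among the 12884 genes tested. The data come from 6 libraries of SW480, a line established from a colon carcinoma and labelled as mutant for p53. Plasmid transfection is the labelled treatment of all 6, of which 3 libraries are labelled control and 3 'exercised', each numbered 1 to 3. The second group was read as the cells that received the MDM4 plasmid, since it is the only group besides control, and is called MDM4 below. The transfection was transient, the plasmid given to the control cells is not named for these libraries, and nothing in the labels says that the libraries came from separate cultures, so the tests measure the spread between libraries. Expression is in FPKM, a gene's reads scaled by its length and by the depth of the library, so that levels can be compared between genes. Values in a row are in the order of replicates 1, 2 and 3. In such bulk RNA, fewer cells that express a gene and less RNA per cell cannot be told apart.

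NF-κB is a family of dimers built from subunits that share the Rel homology domain, which binds DNA. *RELA*, *RELB* and *REL* encode subunits that also carry a transactivation domain, while *NFKB1* and *NFKB2* encode the precursors p105 and p100, which are processed to the DNA-binding subunits p50 and p52. In resting cells the IκB proteins hold the dimers in the cytoplasm until a kinase marks them for degradation, as happens after TNF, interleukin 1 or Toll-like receptor signals, and the noncanonical branch releases p52 and RELB through processing of p100. Several inhibitors are themselves NF-κB target genes, which closes negative feedback loops. In the colon epithelium the pathway is known for its part in inflammation and in tumours linked to it.

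Because such feedback runs through κB motifs near the start of the genes, the 250 bases before each start site in RefSeq on GRCh38.p14 were searched for the κB motif on both strands, allowing the usual variable letters in its middle and counting overlapping matches separately. Of the 10 genes, 8 had an entry, and 7 of these 8 held at least 1 match before at least 1 of their start sites. By comparison, 8.19% of the 10026 tested genes with an entry held a match. Counted by start site, 9 of the 14 windows of these 8 genes held a match, against 5.21% of all 35116 windows. *RELA* had an entry without a match, and *RELB* and *NFKBIE* had no entry and so were not searched. A stretch is shown for each of the 7 genes, 5′ to 3′ on the strand of the gene, with the letters of the κB motif in capitals.
NFKB1: gacgtcagtGGGAATTTCCagccaggaa
NFKB2: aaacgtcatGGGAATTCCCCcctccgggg
REL: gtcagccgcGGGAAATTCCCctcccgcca
NFKBIA: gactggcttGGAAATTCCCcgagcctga
NFKBIB: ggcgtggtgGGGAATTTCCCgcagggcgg
NFKBIZ: ttttggtctGGGAATTTCCagtgtgcag
TNFAIP3: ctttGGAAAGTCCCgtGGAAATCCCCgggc

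The *NFKB1*, *NFKBIZ* and *NFKBIA* stretches lie outside annotated exons of these genes in GENCODE release 29, at chr4:102501301-102501328 and chr3:101827758-101827785 on the plus strand and at chr14:35404812-35404839 on the minus strand. The *NFKB1* stretch is in an exon of the non-coding gene AF213884.3. The *NFKB2* stretch at chr10:102394462-102394490, the *REL* stretch at chr2:60881518-60881546, the *NFKBIB* stretch at chr19:38899932-38899960 and the *TNFAIP3* stretch at chr6:137867188-137867217, all on the plus strand, overlap annotated 5′ exons of transcripts with another start. *TNFAIP3*, which encodes the ubiquitin-editing enzyme A20, held 2 matches on the strand opposite to the gene, 46 to 67 bases before its start. A match describes these letters and not a site bound in SW480 cells. RNA sequencing does not measure binding.

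The libraries held between 32840353 and 44450380 reads on genes, recovered from the FPKM values. *MDM4* was at 6.35, 7.09 and 5.13 FPKM in the control libraries and at 188, 185 and 56.3 FPKM in the MDM4 libraries, and the groups were far apart (p = 0.1 in a two-sided exact permutation test, the smallest p possible with 3 libraries a group). Across genes, replicate 3 differed from the other two libraries of its group, so results are also given over replicates 1 and 2 alone. Of 10 colon epithelial markers 6 were tested and 0 passed, with 5 lower and a median log2 fold change of -0.09. Over all tested genes 52.8% were lower and the median was -0.0091. The marker sum, nearly all from the keratin genes *KRT8* and *KRT18*, was 3458 to 3836 FPKM in control and 3230 to 3569 FPKM in MDM4 libraries. *VIL1*, which encodes the microvillus protein villin, had -0.54 and was lower with MDM4 in each replicate number. *CDX2*, an intestinal transcription factor, and *EPCAM* were lower without overlap between groups, *CDX2* at -0.22 and *EPCAM* at -0.06, and *CDH1*, which encodes E-cadherin, was higher without overlap, at 0.14. Of all tested genes, 6.85% had groups without overlap. The part of these markers in the results below was not tested. *CDX1* and *CEACAM5* were at or near 0. Leukocyte markers summed to 6.01 to 7.25 FPKM in control and 6.08 to 6.80 FPKM in MDM4 libraries, mostly from *CD68* (log2 fold change 0.03, against -0.63 for *LYZ* and -0.30 for *CD14*, none passing), with *MS4A1* listed at 0 in each library and *PTPRC* at most at 0.0142 FPKM. Fibroblast and endothelial markers summed to between 2.12 and 4.58 FPKM over both groups, mostly from *COL1A1*.

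*NFKB2* and *RELA* were the most abundant subunit transcripts in control cells, at 45.4 ± 4.82 and 41.5 ± 3.06 FPKM (SD, n = 3 each). Their ranges overlapped, and that of *RELA* overlapped in turn with that of *NFKBIA*, which encodes IκBα, at 37.8 ± 3.53 FPKM (SD, n = 3). *NFKBIB*, which encodes IκBβ, followed at 35.8 ± 2.05 FPKM (SD, n = 3), within the range of *NFKBIA*. These 4 genes formed the upper tier, and each of their control libraries lay above each control library of the other 6 genes. *NFKB1* at 24.8 ± 6.83 FPKM and *RELB* at 20.6 ± 2.78 FPKM (SD, n = 3 each) came next, with overlapping ranges. Below them stood *NFKBIE*, which encodes IκBε, at 9.75 ± 2.10 FPKM, and *TNFAIP3* at 7.09 ± 0.895 FPKM (SD, n = 3 each), whose ranges did not overlap. *NFKBIZ*, which encodes the nuclear protein IκBζ, was at 3.97 ± 0.676 FPKM (SD, n = 3). *REL*, the subunit best known from lymphoid cells, was lowest at 2.65 ± 0.584 FPKM (SD, n = 3). By mean, the order in MDM4 libraries differed in 1 place, with *NFKBIB* at 35.04 ± 0.481 FPKM ahead of *NFKBIA* at 32.6 ± 1.83 FPKM (SD, n = 3 each) and no overlap between these ranges.

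Summed over the 5 subunits, the level was 144, 134 and 127 FPKM in the control libraries and 123, 127 and 125 FPKM in the MDM4 libraries. All MDM4 libraries lay below all control libraries, the nearest pair at 126.8 FPKM in both (exact two-sided permutation test, p = 0.1, and 0.45 after Benjamini-Hochberg adjustment over 9 such quantities). In this pair the FPKM over all genes summed to 398727 in control replicate 3 and 393098 in MDM4 replicate 2. The separation was not checked under another scaling, which could undo it. *RELA* made up between 30.4% and 32.5% of the subunit sum in every library. The share of *NFKB2* was 31.6%, 30.2% and 39.5% in the control libraries and 29.5%, 30.4% and 40.04% in the MDM4 libraries, and that of *NFKB1* was 19.7%, 21.8% and 13.4% in control and 20.9%, 20.9% and 13.8% in MDM4 libraries. The libraries thus differed in composition by replicate number, with replicate 3 rich in *NFKB2* and poor in *NFKB1* in both groups. The IκB genes *NFKBIA*, *NFKBIB* and *NFKBIE* together came to 88.5, 81.0 and 80.4 FPKM in control and to 73.5, 75.5 and 80.3 FPKM in the MDM4 libraries (p = 0.1 and adjusted p = 0.45, two-sided exact permutation test). Relative to the subunits this sum was 61.8% ± 1.49 in control and 61.2% ± 2.66 in MDM4 libraries (SD, n = 3 each, p = 0.6 and adjusted p = 0.9, two-sided exact permutation test).

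To ask whether MDM4 changed the genes of the pathway, the 3 MDM4 libraries were compared with the 3 control libraries by limma on log2(FPKM + 0.1). No member passed an adjusted p under 0.05, and neither did any other gene (0% of 12884 tested, with 222 at an unadjusted p under 0.05 and 0 of the 10 members among them). Even *MDM4*, the transfected gene, was not called by this fit, although it was higher by 4.33 on the log2 scale (limma adjusted p = 0.161). A lack of calls here therefore does not show that a gene was unchanged. The adjusted p from limma was 0.9999 for each of the 10 genes. In 9 of 10 the log2 fold change was under 0, against 52.8% of all tested genes, and the median over the 10 genes was -0.14 against -0.0091 over all tested genes. The groups overlapped in all 10, that is, 0 of 10 had groups that did not overlap, against 6.85% of all tested genes. Exact two-sided permutation tests over libraries gave p from 0.2 to 0.9 for the single genes.

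**Figure D1:**
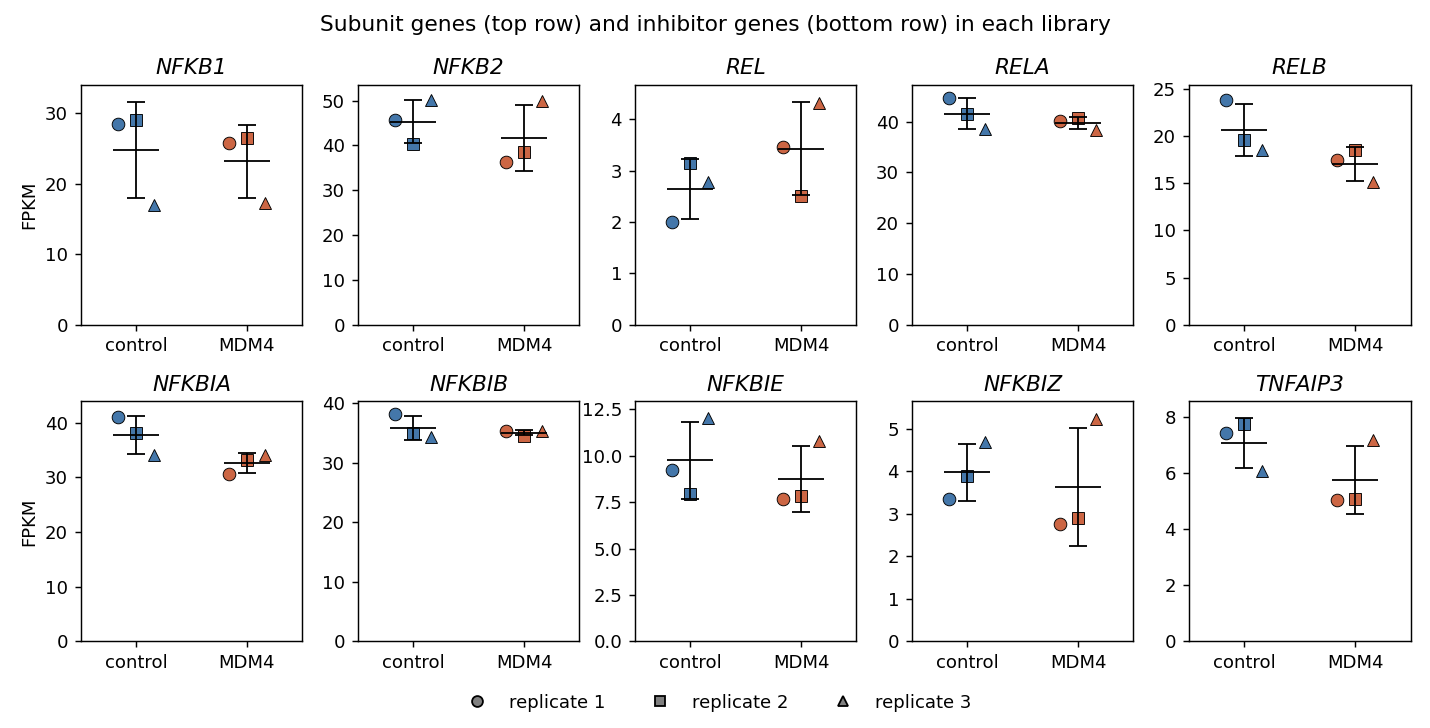
FPKM of the 10 genes in each control (blue) and MDM4 (orange) library, with circles, squares and triangles for replicates 1 to 3 and a bar with error bars for the mean and SD of 3 libraries. In the *NFKB1* panel the triangles lie far below the other points in both groups, at 16.9 and 17.2 FPKM, and in each panel the groups overlap.

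Among the subunits, *NFKB1* (chromosome 4 from 102501329 to 102617302, plus strand, in GENCODE release 29 on GRCh38, as for the positions that follow) was at 28.4, 29.1 and 16.9 FPKM in the control libraries and 25.8, 26.5 and 17.2 FPKM in the MDM4 libraries. Replicate 3 was lowest in both groups, and the MDM4 libraries lay inside the range of the control libraries. The log2 fold change was -0.08 (standard error 0.24, limma adjusted p = 0.9999). *NFKB2*, on chromosome 10 from 102394110 to 102402529, was at 45.6, 40.4 and 50.1 FPKM in control and 36.3, 38.5 and 50.04 FPKM in the MDM4 libraries. Here replicate 3 was highest in both groups, and nearly equal between them. For this gene the log2 fold change was -0.13 (standard error 0.14, limma adjusted p = 0.9999), from -0.04 without MDM4 replicate 1 to -0.27 without MDM4 replicate 3.

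*RELA*, on the minus strand of chromosome 11 from 65653596 to 65663094, encodes the p65 subunit of the canonical dimer. It was at 44.6, 41.4 and 38.5 FPKM in control and 40.04, 40.7 and 38.3 FPKM in the MDM4 libraries, one of the narrowest spreads of the group, with a range of 0.22 on the log2 scale over the 6 libraries. The log2 fold change of -0.06 had a 95% interval from -0.25 to 0.12. *RELB*, on chromosome 19 from 45001430 to 45038198, encodes the partner of p52 in the noncanonical branch. It was at 23.8, 19.6 and 18.5 FPKM in control and 17.5, 18.6 and 15.1 FPKM in the MDM4 libraries. Each MDM4 library was below the control library of the same number, at 73.5%, 94.5% and 81.5% of it, while the groups overlapped narrowly, MDM4 replicate 2 lying just above control replicate 3. The log2 fold change was -0.27 (standard error 0.13, 95% interval -0.57 to 0.02, unadjusted p = 0.0652 and adjusted p = 0.9999 from limma).

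*REL*, on chromosome 2 from 60881521 to 60931610, was the 1 member with a positive log2 fold change. It was at 2.01, 3.15 and 2.78 FPKM in control and 3.46, 2.51 and 4.32 FPKM in the MDM4 libraries, from 679 to 1112 reads. The MDM4 library was higher in replicates 1 and 3 and lower in replicate 2. Its log2 fold change was 0.35 (standard error 0.25, 95% interval -0.22 to 0.93, limma adjusted p = 0.9999), and ran from 0.17 without control replicate 1 to 0.55 without MDM4 replicate 2. Of its 13170 annotated exonic bases, 43.3% are shared with the non-coding gene AC010733.2 on the same strand, so reads could be counted on either gene. The *NFKBIB*, *TNFAIP3* and *RELA* exons share 40, 95 and 9 bases with genes on the other strand, and no source states whether counting used strand.

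Among the inhibitors, *NFKBIA* (chromosome 14 from 35401511 to 35404749, minus strand) was at 41.1, 38.1 and 34.1 FPKM in control and 30.6, 33.2 and 34.1 FPKM in the MDM4 libraries. The groups met at replicate 3 only, and MDM4 replicates 1 and 2 lay below every control library. The log2 fold change was -0.21 (standard error 0.092, 95% interval -0.42 to 0.0083, unadjusted p = 0.0573 and adjusted p = 0.9999 from limma). *NFKBIB*, on chromosome 19 from 38899700 to 38908893, was at 38.1, 34.97 and 34.3 FPKM in control and 35.3, 34.5 and 35.4 FPKM in the MDM4 libraries. It had the narrowest spread of the 10 genes, a range of 0.15 on the log2 scale, and a log2 fold change of -0.03 (standard error 0.073). A change larger than 0.20 in either direction lay outside the 95% interval, which ran from -0.20 to 0.14.

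*NFKBIE*, on the minus strand of chromosome 6 from 44258166 to 44265788, was at 9.23, 7.95 and 12.1 FPKM in control and 7.65, 7.81 and 10.8 FPKM in the MDM4 libraries. The highest library of each group was replicate 3, and the log2 fold change was -0.15 (standard error 0.19). *NFKBIZ*, on chromosome 3 from 101827991 to 101861022, was at 3.34, 3.89 and 4.68 FPKM in control and 2.76, 2.90 and 5.22 FPKM in the MDM4 libraries, from 388 to 727 reads. MDM4 replicates 1 and 2 were the lowest of the 6 libraries and MDM4 replicate 3 was the highest. Its log2 fold change was -0.18 (standard error 0.26), and ran from -0.015 without MDM4 replicate 1 to -0.46 without MDM4 replicate 3.

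*TNFAIP3*, on chromosome 6 from 137867188 to 137883312, encodes A20, which removes and adds ubiquitin chains on signalling proteins upstream of the IκB kinase. It was at 7.44, 7.76 and 6.07 FPKM in control and 5.06, 5.09 and 7.18 FPKM in the MDM4 libraries, from 833 to 1569 reads. MDM4 replicates 1 and 2 lay below every control library, while MDM4 replicate 3 lay above control replicate 3. Its log2 fold change, -0.30, was the most negative of the 10 genes (standard error 0.18, 95% interval -0.71 to 0.11, limma adjusted p = 0.9999).

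Over replicates 1 and 2 alone, both MDM4 libraries lay below both control libraries in 8 of the 10 genes, all but *REL* and *NFKBIB*, against 20.9% of the 12746 genes tested there. None of the 10 passed an adjusted p under 0.05 in limma, against 0.581% of these genes, and 5 of the 10 had an unadjusted p under 0.05, as did 1050 of the 12746. *TNFAIP3* came nearest, its log2 fold change being -0.57 (standard error 0.11, 95% interval -0.82 to -0.33, adjusted p = 0.0504 from limma), and the MDM4 level was 68.0% of control in replicate 1 and 65.6% in replicate 2. *NFKBIA* had -0.31 (standard error 0.083, limma adjusted p = 0.233), at 74.4% and 87.2% of control. *NFKBIZ* had -0.34 (standard error 0.15, limma adjusted p = 0.577), at 82.8% and 74.3% of control. These 3 inhibitors had the most negative values of the 10 genes. By contrast, *RELA* had -0.09 (standard error 0.077) and *NFKB1* -0.14 (standard error 0.080), with limma adjusted p of 0.796 and 0.694. *RELB* had -0.26 and *NFKB2* -0.20, with limma adjusted p of 0.541 and 0.577, and *NFKBIE* -0.15. With the replicate number as a block over all 6 libraries, 0 of 10 members passed, against 0.0155% of tested genes, and *RELB* had the lowest adjusted p of the 10 at 0.294 from limma. *MDM4* was called with the block (limma adjusted p = 4.77e-05).

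**Figure D2:**
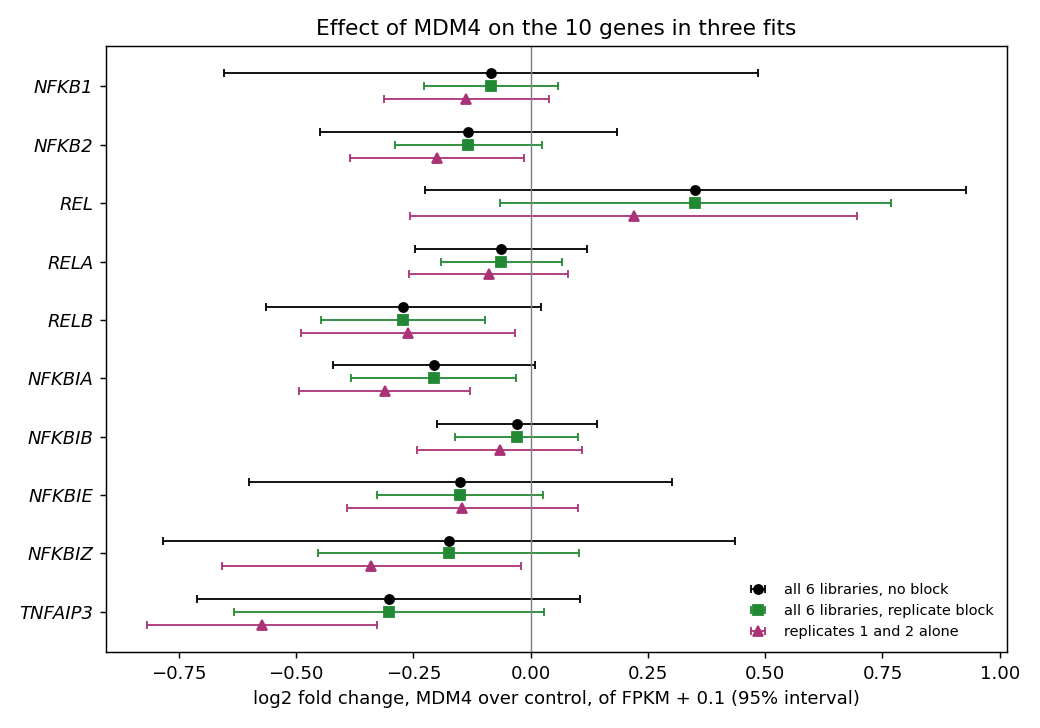
Log2 fold change of each gene, MDM4 over control, with its 95% interval, in the fit of all 6 libraries (black circles), with the replicate number as a block (green squares) and over replicates 1 and 2 alone (purple triangles). Only *REL* lies right of 0, and over replicates 1 and 2 the *TNFAIP3* interval runs from -0.82 to -0.33.

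Comparing libraries of the same number, 9 of 10 genes were lower with MDM4 in replicate 1, 10 of 10 in replicate 2 and 4 of 10 in replicate 3, against 6932, 6369 and 6573 of all 12884 tested genes. The median of the 10 differences was -0.27, -0.11 and 0.01 on the log2 scale, against -0.023, 0.0016 and -0.0043 over all tested genes. In *TNFAIP3* the MDM4 library of replicate 3 was at 118% of its control, in *NFKBIZ* at 112%, in *NFKBIA* at 100.2% and in *RELB* at 81.5%. The difference between the effect in replicate 3 and in replicates 1 and 2 was tested as a term in limma. None of the 10 genes passed, against 0.194% of all tested genes, and 1 had an unadjusted p under 0.05, against 293 of all. This was *TNFAIP3*, whose term was 0.81 on the log2 scale (standard error 0.19, adjusted p = 0.367). Its term was 0.84 without control replicate 1 and 0.78 without control replicate 2. Without MDM4 replicate 1 or 2 it was 0.81 or 0.82. Such fits leave 1 library of a group in replicates 1 and 2, so only the size is given. *NFKBIZ* had a term of 0.49 and *NFKBIA* of 0.31 (limma adjusted p = 0.9999 for both). The term rests on 1 library per group in replicate 3. *MDM4* itself was lower in MDM4 replicate 3, at 30.1% of the mean of replicates 1 and 2, and the part of this in the result was not tested.

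Replicate 3 was also compared with replicates 1 and 2 in limma with a term for the group, a comparison chosen after the values were seen. Of the 10 genes, 3 were higher in replicate 3 (*NFKB2*, *NFKBIE* and *NFKBIZ*), against 29.6% of all tested genes, and 2 were lower (*NFKB1* and *RELB*), against 14.6%. These shares are near those of all genes, whose median shift was 0.09 on the log2 scale. *NFKB1* fell by 0.68 on the log2 scale in replicate 3 (standard error 0.064, adjusted p = 4.13e-05 from limma), to 58.9% of the mean of replicates 1 and 2 in control and 65.8% in MDM4 libraries. *NFKB2* was higher by 0.32 (standard error 0.070, limma adjusted p = 0.00435), at 116% and 134%, so that the 2 precursor genes moved in opposite directions. The ratio of *NFKB1* to *NFKB2* was 0.624, 0.719 and 0.338 in the control libraries and 0.710, 0.689 and 0.344 in the MDM4 libraries.

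*NFKBIE* was higher in replicate 3 by 0.48 (standard error 0.084, limma adjusted p = 0.00119), at 140.4% in control and 139.5% in MDM4 libraries. *NFKBIZ* was higher by 0.61 (standard error 0.13, limma adjusted p = 0.00383), at 129% in control and 185% in MDM4 libraries. *RELB* was lower by 0.24 (standard error 0.082, limma adjusted p = 0.0371), at 85.3% and 83.7%. *NFKB1* and *NFKBIE* passed also when any 1 library was left out and under the 3 other scalings. *RELB* did not pass without MDM4 replicate 1, 2 or 3 or control replicate 3 (adjusted p from 0.061 to 0.24), nor *NFKB2* and *NFKBIZ* without MDM4 replicate 3 (adjusted p of 0.15 and 0.16). *RELA* passed under median ratio scaling, at -0.22, *REL* without control replicate 2, at 0.50, and *TNFAIP3* without control replicate 3, at 0.49 (limma adjusted p = 0.0259) against 0.09 over all libraries. *TNFAIP3*, *NFKBIA* and *NFKBIB* were lower in replicate 3 of the control and higher in replicate 3 of the MDM4 libraries. The shifts were -0.32 and 0.49 for *TNFAIP3*, -0.21 and 0.10 for *NFKBIA*, and -0.09 and 0.02 for *NFKBIB*.

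**Figure D3:**
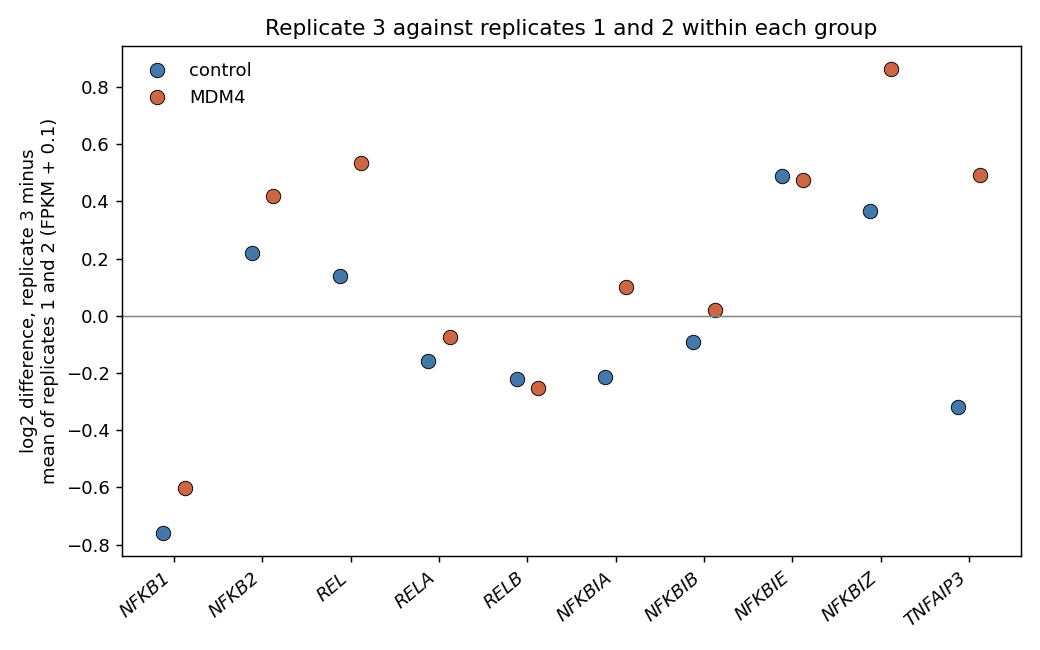
Log2 difference between replicate 3 and the mean of replicates 1 and 2 for each gene, in control (blue) and MDM4 (orange) libraries. The pairs of points for *NFKB1*, *RELA* and *RELB* lie below 0, and those for *NFKB2*, *REL*, *NFKBIE* and *NFKBIZ* lie above 0. Those for *TNFAIP3* are the farthest apart, at -0.32 and 0.49.

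The rest of the pathway was read from lists of known members. Of 28 genes of the IκB kinase complex and its adaptors, which relay signals from receptors to IκB, 13 had a log2 fold change under 0 and 15 over 0, with a median of 0.02 and 0 passing the test. The largest differences were those of *TRADD*, the adaptor of the TNF receptor, at -0.33 (standard error 0.13), of *IKBKE*, an IκB kinase-related kinase, at -0.24 (standard error 0.12), and of *BCL10*, a scaffold of the CARD pathway, at 0.21 (standard error 0.15). *TRADD* was at 13.1, 11.1 and 14.5 FPKM in control and 10.1, 9.20 and 11.4 FPKM in the MDM4 libraries, and was lower with MDM4 in each replicate number. Of 15 activating ligands and receptors tested, 11 were below 0, with a median of -0.10 and 0 passing. Among them *TNF* was at 3.56, 3.51 and 4.86 FPKM in control and 2.85, 1.60 and 4.98 FPKM in the MDM4 libraries, and its log2 fold change was -0.46 (standard error 0.37). *TLR3*, a receptor for double-stranded RNA, had -0.49 (standard error 0.39) from 43 to 148 reads, and *LTA*, a TNF relative, had -0.45 (standard error 0.34) from 19 to 61 reads.

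Of 17 other negative regulators tested, 12 were below 0, with a median of -0.03 and 0 passing. *TRAF1*, an adaptor that NF-κB induces, was at 2.11, 1.90 and 1.91 FPKM in control and 1.20, 1.19 and 1.73 FPKM in the MDM4 libraries. Its MDM4 libraries all lay below its control libraries, and its log2 fold change was -0.51 (standard error 0.20, limma adjusted p = 0.9999). It was the 1 of 17 tested regulators without overlap between groups, against 6.85% of all tested genes. *TNIP1*, which encodes a binding partner of A20, had -0.20 (standard error 0.0995), and *ITCH*, a ubiquitin ligase, 0.21 (standard error 0.11). *TRAF1* and *TNIP1* are also in the list of target genes.

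Of 26 NF-κB target genes tested, 25 had a log2 fold change under 0, with a median of -0.20, against 52.8% and -0.0091 over all tested genes, and 0 passed the test over 6 libraries. By replicate number the median was -0.31, -0.25 and -0.07. Over replicates 1 and 2 alone 7 of them passed, all lower with MDM4, against 0.581% of all genes tested there. *CXCL2*, a neutrophil chemokine, was at 11.1, 10.7 and 10.4 FPKM in control and 5.31, 5.45 and 9.27 FPKM in the MDM4 libraries, and fell by 1.01 over replicates 1 and 2 (standard error 0.11, limma adjusted p = 4.57e-04). *CXCL3* fell by 0.86 there (limma adjusted p = 7.41e-04). *CCL20*, a chemokine of the mucosa, fell by 0.99 (limma adjusted p = 0.00306) but was at 8.13 FPKM in MDM4 replicate 3 against 7.59 FPKM in control replicate 3.

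All 18 interferon-stimulated genes tested were below 0 with a median of -1.35, and over replicates 1 and 2 alone 17 passed, while their median by replicate number was -2.15, -1.74 and -0.02. Their sum was between 237 and 722 FPKM in control and between 205 and 228 FPKM in MDM4 libraries. *IFI6* was at 162, 170 and 21.3 FPKM in control and 15.2, 16.7 and 19.6 FPKM in the MDM4 libraries, *MX1* at 30.6, 30.4 and 5.65 FPKM in control and 3.86, 3.75 and 5.26 FPKM in the MDM4 libraries, and *XAF1* had a log2 fold change of -2.41 from 4 to 257 reads. *IFI6* and *MX1* were low in control replicate 3 and varied less over the MDM4 libraries. Others of the list were not near level there. *OAS2* was at 2.57, 3.22 and 0.96 FPKM and *IRF9* at 3.80, 4.76 and 7.12 FPKM in the MDM4 libraries. *DDX58* was at 6.29, 7.04 and 5.18 FPKM in control and 3.38, 3.54 and 5.41 FPKM in the MDM4 libraries. The NF-κB target genes that passed over replicates 1 and 2 also differed among themselves in replicate 3. *CXCL1*, *CXCL2*, *CCL20* and *TNFAIP2* held in control replicate 3 and were higher in MDM4 replicate 3 than in MDM4 replicates 1 and 2. *CXCL8* and *CCL2* instead fell, from 19.5 and 32.9 FPKM in control replicate 1 to 10.5 and 18.4 FPKM in control replicate 3. Neither was highest in MDM4 replicate 3. *CXCL3* fell in control replicate 3 but was highest in MDM4 replicate 3 among the MDM4 libraries. The control libraries with high interferon-stimulated genes, replicates 1 and 2, are those in which *TNFAIP3* and *NFKBIA* were highest. The same held for *NFKB1*, *RELA*, *RELB* and *NFKBIB*, but not for *NFKB2*, *REL*, *NFKBIE* and *NFKBIZ*. The part of an interferon response in the values of the 10 genes was not tested.

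**Figure D4:**
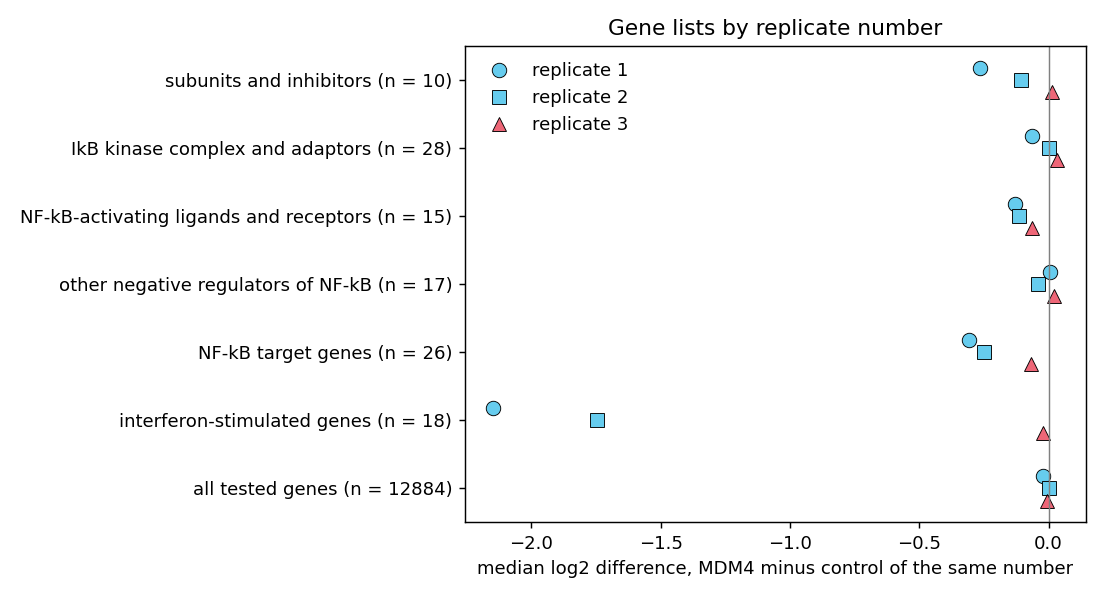
Median log2 difference between the MDM4 and the control library of the same number for each gene list, with blue circles and squares for replicates 1 and 2 and red triangles for replicate 3. The 10 subunits and inhibitors run from -0.27 to 0.01, the NF-κB target genes from -0.31 to -0.07 and the interferon-stimulated genes from -2.15 to -0.02.

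The widest ranges over the 6 libraries among the 10 genes were those of *REL*, at 1.07 on the log2 scale, and *NFKBIZ*, at 0.90. Likeness to them was measured as the mean absolute difference in centred log2(FPKM + 0.1) over the 6 libraries. Those most like *REL* included *ANKRD36B* and *ZDBF2*, with mean differences of 0.062 and 0.075. *ZDBF2* was at 2.15, 3.33 and 3.36 FPKM in control and 3.23, 2.61 and 4.39 FPKM in the MDM4 libraries, and so shared the low value of *REL* in control replicate 1. The genes most like *NFKBIZ* were *RAET1G*, *PDGFRL* and *DTNA*, with mean differences of 0.043, 0.048 and 0.050. *RAET1G* was at 1.25, 1.42 and 1.85 FPKM in control and 1.12, 1.07 and 2.05 FPKM in the MDM4 libraries, with replicate 3 highest in both groups.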

How the data were processed

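The authors deposited FPKM values of 6 SW480 libraries, made from oligo(dT)-enriched mRNA on the Illumina HiSeq2000 platform. The aligner, the counting and the annotation are not given in the sources used here. The table's columns are named by a letter and a number, read as G for control and M for MDM4 with the replicate number. Within a gene the FPKM values are whole multiples of a step, which gave the reads of 17189 of 17189 genes above 0 (tolerance 0.02), and the gene lengths implied were whole for 17183 of them. Genes averaging 0.5 FPKM or more (12884) were tested on log2(FPKM + 0.1) by limma 3.58.1 in R 4.3.3 (trend), and p-values were adjusted over all of them (Benjamini-Hochberg). The fit was checked on simulated data. These held no shift of replicate 3 common to both groups, so the check does not cover such a shift. A DEG also had an absolute log2 fold change over 1. Fold changes on this scale understate low genes.

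Same-numbered libraries deviated together across genes (correlations of their deviations from the group means of 0.46, 0.45 and 0.78 for replicates 1 to 3), so the numbers were taken as pairs and the block was an alternative. The correlations of replicate 1 with 2 across groups were 0.44 and 0.46, so these numbers were not separated by the check. Other alternatives were pseudocounts, filters, scalings, voom on recovered reads and leaving out each library. The 10 genes and the lists were chosen with earlier results of these data known. All 10 genes and *MDM4* are named, with the 3 genes of each list of largest absolute log2 fold change, and the 3 nearest to each of the 2 most variable members, of which 1 is not reported here. Any further gene was picked with its values in view. Python 3.11.15, scipy 1.17.1 and matplotlib 3.10.9 were used.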

Additional observations from a re-analysis of the deposited data

How the results depend on the processing

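Across 20 alternatives 0 of the 10 genes passed the test between MDM4 and control libraries, and of 190 single values 185 kept their direction and their side of the threshold. Keeping that side is a weak check, as no gene passed in the main fit, *MDM4* included. The number of members with a log2 fold change under 0 was between 7 (without control replicate 1) and 9, and their median ranged from -0.21 when MDM4 replicate 3 was left out to -0.07 when MDM4 replicate 1 was. *NFKB1* reversed to 0.03 without control replicate 1, 0.05 without control replicate 2 and 0.12 without MDM4 replicate 3, and ranged down to -0.34 without control replicate 3. *NFKBIB* reversed to 0.017 without control replicate 1, against -0.059 without control replicate 3, and *NFKBIE* to 0.012 without control replicate 3, against -0.31 without MDM4 replicate 3. Leaving out 1 library also moved *RELB* between -0.35 and -0.17 and *TNFAIP3* between -0.47 and -0.22. The cause was not tested. The lowest adjusted p of *TNFAIP3* over the alternatives was 0.0504 from limma.

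DEGs over all genes numbered 0, and 2 with the replicate block, 2 with replicate 3 as a term (chosen after the data were seen), 14 with voom and the replicate block, 37 over replicates 1 and 2 alone, and 0 to 16 when a library was left out (16 without control replicate 3, 1 without MDM4 replicate 3). The block changed no call among the 10 genes. With 1 library of replicates 1 and 2 left out, the difference term of *TNFAIP3* was between 0.78 and 0.84. The comparison of replicate 3 with replicates 1 and 2 was then passed by 4 (without MDM4 replicate 1 or 2) to 6 (without control replicate 2) of the 10 genes. It was passed by 5 over all libraries, and by fewer without MDM4 replicate 3. With 3 libraries a group the 95% interval of *NFKBIZ* ran from -0.78 to 0.43.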
